A study of Homo sapiens with 6 samples.

Results

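The 10 genes described here encode transcription factors of the ETS family: ETS1, ETS2, ELK1, ELK3, ELK4, ETV4, ETV5, ELF3, ELF1 and GABPA. They were found by gene symbol among 26389 genes in the count table, and all 10 had enough reads to be tested. They were chosen by family with their counts and fold changes in the knockdown comparison already known, so those differences are given as a description, without a test. The data are RNA-seq read counts and FPKM values (fragments scaled to gene length and library depth) from HepG2, a human hepatocellular carcinoma cell line. Control cells (3 libraries, shCtrl) had received a control short hairpin RNA plasmid, and knockdown cells (3 libraries, shTCTP) a hairpin plasmid against TCTP, the translationally controlled tumour protein encoded by TPT1. Both groups were transfected with a lipid reagent, the labels name no untransfected group, and a harvest time is given for the qPCR samples alone.

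ETS factors share a DNA-binding domain that recognises a GGAA core, and the sequence around that core and the partner proteins differ between subfamilies. Many are end points of the RAS and ERK kinase cascade, in which phosphorylation changes their activity without a change in their messages. ETS1 and ETS2 bind with AP-1 factors at genes of matrix breakdown and growth, the ternary complex factors ELK1, ELK3 and ELK4 dock onto serum response factor at early response genes, and ETV4 and ETV5 belong to the PEA3 group, which receptor tyrosine kinases induce. ELF3 is an epithelial factor, ELF1 a broadly expressed activator, and GABPA forms a complex with GABPB proteins at genes of mitochondrial respiration.

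Promoter windows, running from 250 bases before to 50 bases after a transcription start, were found in RefSeq (build GRCh38.p14) for 7 of the 10 members, and not for ETS1, ETV4 and ETV5. The upstream stretches below are those of ELF3 and ELK3, which along with ETS1 were the members whose libraries separated by group, and of ELK4 and GABPA, the members with a full ETS consensus in their own promoter. Each is printed 5′ to 3′ on the strand of the gene. Capitals mark the TATA box (TATAAA) in ELF3, the GC box (GGGCGG) in ELK3, and the ETS consensus CCGGAAGT in ELK4, which appears in GABPA as its reverse complement ACTTCCGG.
ELF3 (chr1:202010337-202010586, plus strand): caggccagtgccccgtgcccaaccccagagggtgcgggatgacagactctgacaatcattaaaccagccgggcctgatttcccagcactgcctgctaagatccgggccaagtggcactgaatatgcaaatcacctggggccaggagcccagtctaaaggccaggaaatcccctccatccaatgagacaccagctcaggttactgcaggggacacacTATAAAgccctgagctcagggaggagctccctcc
ELK3 (chr12:96194275-96194374, plus strand): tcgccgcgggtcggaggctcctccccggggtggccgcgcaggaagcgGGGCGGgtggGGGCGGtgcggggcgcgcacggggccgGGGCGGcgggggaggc
ELK4 (chr1:205632012-205632111, minus strand): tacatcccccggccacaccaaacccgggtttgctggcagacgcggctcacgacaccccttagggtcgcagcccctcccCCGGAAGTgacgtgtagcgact
GABPA (chr21:25734872-25734971, plus strand): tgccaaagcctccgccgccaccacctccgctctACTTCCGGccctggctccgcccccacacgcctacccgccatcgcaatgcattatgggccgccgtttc

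Both strands of every 300-base window were searched. The ETS consensus CCGGAAGT, which contains the GGAA core, was found in 2 of the 11 windows of the 7 members, starting 22 bases before the start in ELK4 and 67 bases before it in GABPA. It is present in 4.14% of all 35116 RefSeq promoter windows of that length. TATAAA was found in 2 of 11 windows, that of ELF3, 34 bases before the start, and 1 of ELF1, against 11.5% of all windows. GGGCGG was found in 4 of 11 member windows, against 45.0% of all windows, and the bare core GGAA in 10 of 11 member windows, against 95.5%. The CArG box bound by serum response factor (1.29% of all windows), the AP-1 site TGACTCA (4.95%) and the cyclic AMP response element TGACGTCA (1.85%) were each found in 0 of the 11 member windows. A match is a run of letters and not a measured binding site.

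Libraries held 25427614 to 30486409 reads assigned to genes. The fewest reads were in knockdown library 3, whose correlation with the other 5 across genes averaged 0.985, against 0.990 to 0.991 for each of those. TPT1 read 2575, 2249 and 2290 CPM (read counts scaled to library depth with TMM factors) in control and 2032, 1806.5 and 1559 CPM in knockdown libraries, lower in all 3. Its log2 fold change was -0.40 (SE 0.17), which missed the threshold (adjusted p = 0.396 by edgeR). The labels do not say whether the 3 libraries per group are separate cultures, so the errors and p-values cover no more than the differences among these samples, which could be technical. All 13 hepatocyte and HepG2 markers were detected. Their median log2 fold change was -0.28, with 12 of 13 negative, while 49.6% of all tested genes were positive. Groups did not overlap, lower, for 6 of the 13 markers, against 7.30% of all tested genes. The summed level of the markers was 19812 to 22830 FPKM in control and 16889 to 21997 FPKM in knockdown libraries. Most of this sum was APOA2, named here after its values were seen, at 10722 to 13681 FPKM in control and 9193 to 14101 FPKM in knockdown libraries. The part of the marker differences in the results below was not tested.

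In control cells the members differed widely in level per length, and ETV4 alone supplied most of the family's message. The authors' FPKM of ETV4 was 142.05, 148.49 and 154.87 in the control libraries, a mean of 148 ± 6.41 FPKM (SD, n = 3), or 61.0% of the summed FPKM of the 26 ETS genes with a row in the table. Next among the members came its PEA3 relative ETV5 at 13.0 ± 2.01 FPKM and ELK1 at 10.8 ± 0.950 FPKM (SD, n = 3 each), whose control ranges overlapped. ETS2 followed at 6.15 ± 0.987 FPKM, below every library of ELK1. ELF3 at 3.09 ± 0.323 FPKM and ELF1 at 2.59 ± 0.621 FPKM overlapped each other and lay below ETS2 (SD, n = 3 each).

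The remaining members were scarce. ELK3 stood at 0.697 ± 0.126 FPKM, ELK4 at 0.387 ± 0.0666 FPKM and GABPA at 0.277 ± 0.0321 FPKM (SD, n = 3 each), and the control range of each lay apart from that of the member below it. ETS1 was the lowest at 0.127 ± 0.0321 FPKM (SD, n = 3), from 16 to 27 reads per control library. The subfamilies were thus unequal within themselves. Among the ternary complex factors ELK1 far exceeded ELK3 and ELK4, and in the ETS1 and ETS2 pair ETS2 carried nearly all of the message.

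Of the 18 family genes that are not members, 16 had a row in the count table and 6 had enough reads to be tested; FEV and SPIC were not analysed here. ERF, a repressor that ERK moves out of the nucleus, was the second most abundant ETS gene of the 26 at 52.0 ± 2.24 FPKM in control cells (SD, n = 3), between ETV4 and ETV5 and apart from both. ELF4 at 3.33 ± 0.312 FPKM overlapped ELF3 and ELF1, and ELF2 at 0.990 ± 0.195 FPKM overlapped ELK3 (SD, n = 3 each). The untested genes had 0 to 17 reads per library, among them the blood and endothelial factors FLI1 and ERG at 0 or 1 read.

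**Figure D1:**
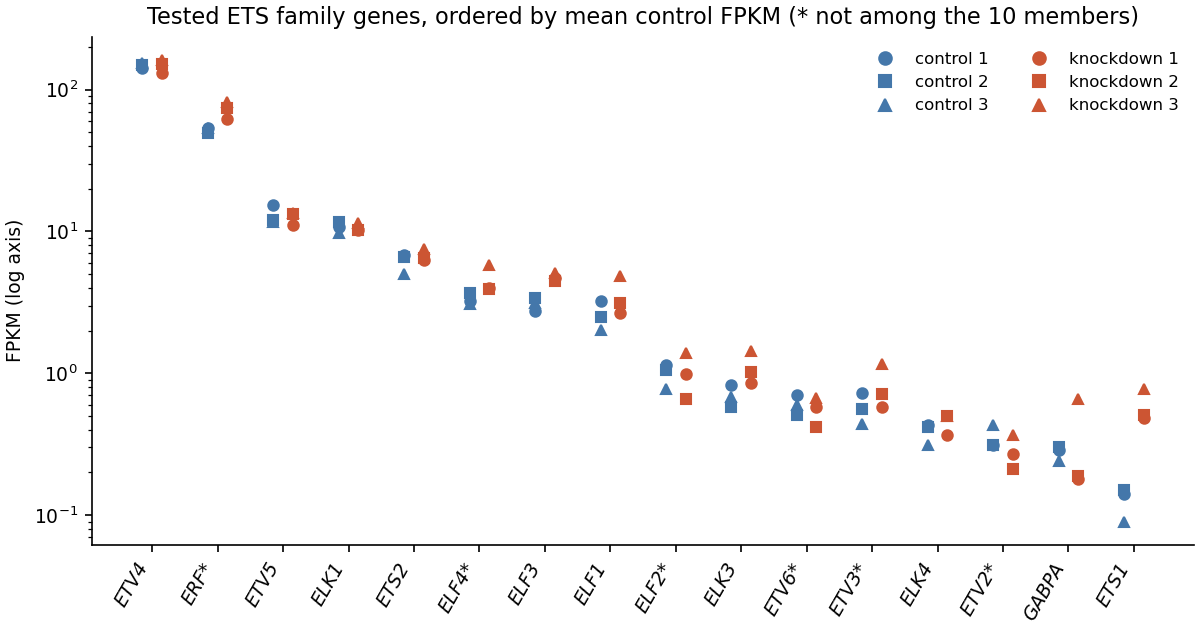
Deposited FPKM (log axis) of the 16 tested ETS family genes in each control (blue) and knockdown (orange) library, ordered by mean control level; an asterisk marks genes outside the 10 members. ETV4 lies above all others at 142.05 to 154.87 FPKM in control, and ETS1 is the lowest in control at 0.09 to 0.15 FPKM.

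ETS1 was the member with the largest difference between the groups. ETS1 (ENSG00000134954.14, GRCh38 chromosome 11, 128458761 to 128587558, minus strand) had 24, 27 and 16 reads in the control libraries and 84, 89 and 115 reads in the knockdown libraries. On the CPM scale this was 0.787, 0.937 and 0.574 against 2.88, 2.99 and 3.88, so every knockdown library lay above every control library, knockdown library 3 being the highest. The means were 0.766 ± 0.182 and 3.25 ± 0.550 CPM (SD, n = 3 each), and the log2 fold change was 2.08 (SE 0.28) or 4.22-fold. In FPKM the level went from 0.127 ± 0.0321 to 0.590 ± 0.165 (SD, n = 3 each), which moved ETS1 from rank 16 to rank 12 of the family. It remained a minor part of the family's message, at 0.0365% to 0.0620% of the summed FPKM in control and 0.188% to 0.260% in knockdown libraries.

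ETS2, the close relative of ETS1, had no such difference. Its CPM values were 28.7, 29.2 and 23.3 in control and 27.8, 27.7 and 27.3 in knockdown libraries, and the knockdown values all lay inside the control range. The log2 fold change of ETS2 was 0.03 (SE 0.14), and it was -0.07 without control library 3, the lowest of the 6.

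Because ETS1 is a hallmark of lymphoid and endothelial cells, markers of those cells were read in the same libraries. Of 7 endothelial markers 5 had a row. PECAM1 had 0 to 5 reads per library, CDH5 1 to 10 and VWF 0 to 8. Each of these had its lowest count in knockdown library 3, which also had the fewest reads. That library had 18833 genes detected, against 20472 to 21036 in the others. TIE1, an endothelial receptor tyrosine kinase gene, had 82, 55 and 63 reads in control and 58, 72 and 93 reads in knockdown libraries, with its highest count in knockdown library 3. The groups overlapped for TIE1, and the part of these markers in the ETS1 difference was not tested. The summed endothelial level was 17.2 to 19.2 FPKM in control and 34.2 to 41.6 FPKM in knockdown libraries. Nearly all of it was ESAM, an adhesion protein of cell junctions named here after its values were seen, which rose from 35.0 ± 2.12 to 68.9 ± 3.75 CPM (log2 fold change 0.98, adjusted p = 0.000362 by edgeR; SD, n = 3). Of 8 leukocyte markers 6 had a row, CD3E having 0 or 1 read, and the 5 that were tested all had negative log2 fold changes. The leukocyte sum of 484 to 599 FPKM in control and 429 to 552 FPKM in knockdown libraries was mostly LYZ. Fibroblast markers summed to 1.87 to 2.28 FPKM in control and 1.91 to 3 FPKM in knockdown libraries, with 5 of 8 having a row. The 2 that were tested, PDGFRB and COL1A1, are named here after their values were seen. Most of the sum was PDGFRB (log2 fold change 0.04). COL1A1 had 19, 12 and 3 reads in control and 16, 26 and 37 reads in knockdown libraries. Its groups overlapped (log2 fold change 1.20, adjusted p = 0.370 by edgeR). In bulk RNA, a change in the number of cells of a type and a change in message per cell cannot be told apart.

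Among the ternary complex factors, ELK3 was higher in knockdown cells, and ELK1 and ELK4 overlapped between the groups. ELK3 (ENSG00000111145.7, chromosome 12, 96194382 to 96269835, plus strand), which represses its targets until ERK phosphorylates it, read 3.57, 2.67 and 3.27 CPM in control and 3.94, 4.51 and 5.40 CPM in knockdown libraries. No knockdown library fell within the control range, but knockdown library 1 was only slightly above it. The log2 fold change of ELK3 was 0.54 (SE 0.21), and 0.42 without knockdown library 3.

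ELK1 (chromosome X, 47635521 to 47650604, minus strand), the best known of the 3, read 32.1, 37.1 and 32.3 CPM in control and 32.5, 31.2 and 29.8 CPM in knockdown libraries. Its log2 fold change was -0.12 (SE 0.13). ELK4 (chromosome 1, 205597556 to 205631962, minus strand) read 4.79, 5.03 and 3.80 CPM in control and 4.35, 5.68 and 4.93 CPM in knockdown libraries, a log2 fold change of 0.13 (SE 0.20). For both, the groups overlapped and the estimate was smaller than its standard error.

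The PEA3 pair, the most abundant members, overlapped between the groups. ETV4 (ENSG00000175832.12, chromosome 17, 43527844 to 43579620, minus strand) read 408, 454 and 493 CPM in control and 397, 446 and 407 CPM in knockdown libraries. The log2 fold change of ETV4 was -0.12 (SE 0.14). ETV5 (ENSG00000244405.7, chromosome 3, 186046308 to 186110318, minus strand) read 67.9, 57.3 and 56.9 CPM in control and 52.1, 60.8 and 51.9 CPM in knockdown libraries, a log2 fold change of -0.14 (SE 0.13). DGKG shares 164 exonic bases with ETV5 on the same strand and had 98 to 162 reads per library, against 1520 to 2071 for ETV5. ETV4 supplied 58.7%, 61.4% and 62.8% of the family's summed FPKM in control and 55.1%, 55.8% and 54.1% in knockdown libraries, while the sum of the rest of the family went from between 91.7 and 100 FPKM to between 106 and 138 FPKM. These shares did not overlap between the groups although the ETV4 levels did, and most of the remainder was ERF. FPKM carry no TMM factor, which was highest in knockdown library 3 (1.17), so levels in that library are higher in FPKM than in CPM. On the log2(FPKM + 1) scale the differences of ETV4, ETV5 and ELK1 were -0.01, -0.04 and -0.01, each nearer to 0 than in CPM.

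ELF3, the epithelial member, was higher in every knockdown library. ELF3 (ENSG00000163435.15, chromosome 1, 202007945 to 202017188, plus strand) read 17.3, 22.8 and 22.0 CPM in control and 31.8, 28.8 and 28.2 CPM in knockdown libraries. The means were 20.7 ± 2.93 and 29.6 ± 1.89 CPM (SD, n = 3 each), and the log2 fold change was 0.52 (SE 0.15) or 1.43-fold. Knockdown library 3, the one that stood apart, was the lowest of the knockdown libraries for ELF3, and without it the log2 fold change was 0.56. An antisense gene, ELF3-AS1, shares 664 exonic bases with ELF3 and had 51 to 141 reads per library, against 529 to 927 for ELF3; whether counting used strand is not given in the sources used here.

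ELF1 and GABPA were the members that depended most on knockdown library 3. ELF1 (ENSG00000120690.13, chromosome 13, 40932028 to 41061440, minus strand) read 12.6, 10.3 and 8.69 CPM in control and 11.0, 12.4 and 16.4 CPM in knockdown libraries. Its log2 fold change was 0.33 (SE 0.19), and 0.16 without knockdown library 3. WBP4, whose exons share 167 bases with ELF1 on the opposite strand, had 169 to 293 reads per library, against 242 to 485 for ELF1. Both genes had their lowest count in control library 3 and their highest in knockdown library 3. The part of WBP4 in the ELF1 values was not tested. GABPA (ENSG00000154727.10, chromosome 21, 25734570 to 25772460, plus strand) had 48, 51 and 41 reads in control and 30, 32 and 93 reads in knockdown libraries, or 1.57, 1.77 and 1.47 against 1.03, 1.08 and 3.14 CPM. Knockdown libraries 1 and 2 lay below every control library for GABPA and knockdown library 3 above every one.

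The log2 fold change of GABPA was 0.12 (SE 0.37) over all libraries and -0.60 without knockdown library 3, so its direction turned on that library. The coefficient of variation of GABPA was 9.42% in control and 69.0% in knockdown libraries, against medians of 13.6% and 15.3% over the tested genes. ATP5PF, whose exons share 413 bases with GABPA on the opposite strand, had 2399 to 2939 reads per library. Its lowest count was in knockdown library 3, the library with the fewest reads. The part of ATP5PF in the GABPA values was not tested.

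Knockdown library 3 differed from knockdown libraries 1 and 2 along gene length. The median log2 difference was -0.20 for the shortest quartile of tested genes (up to 2.05 kb, with length taken from the ratio of counts to FPKM) and 0.22 for the longest quartile (from 5.28 kb). ETS1 (5.80 kb), ELF3 (6.43 kb), GABPA (5.59 kb) and ELK4 (11.3 kb) belong to the longest quartile. The same difference was 1.23 for GABPA, higher than in 99.9% of tested genes, 0.47 for ELF1, 0.35 for ETS1 and 0.32 for ELK3, and -0.10 for ELF3. Without that library ETS1 had a log2 fold change of 1.94. Otherwise the part of gene length in these values was not tested.

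**Figure D2:**
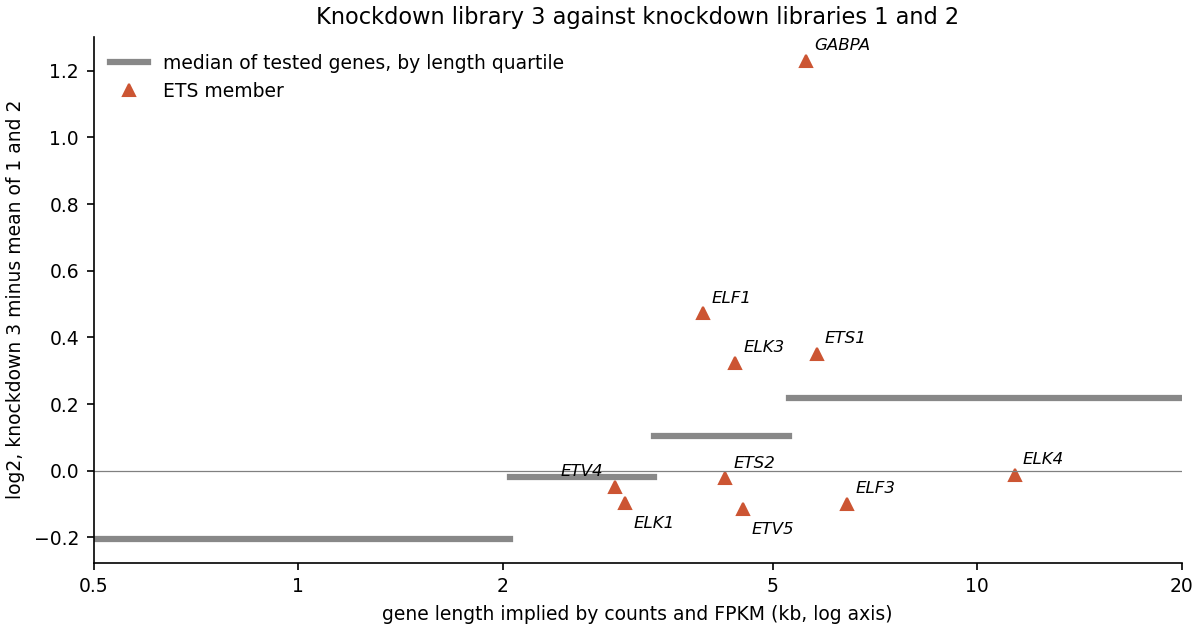
Log2 difference of knockdown library 3 from the mean of knockdown libraries 1 and 2 (vertical axis) against gene length implied by counts and FPKM (kb, log axis) for the 10 members (triangles), with the median of tested genes in each length quartile (grey lines, drawn within the range of the axis). GABPA stands at 1.23, above a median of 0.22 for its quartile, while ELF3 lies at -0.10.

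**Figure D3:**
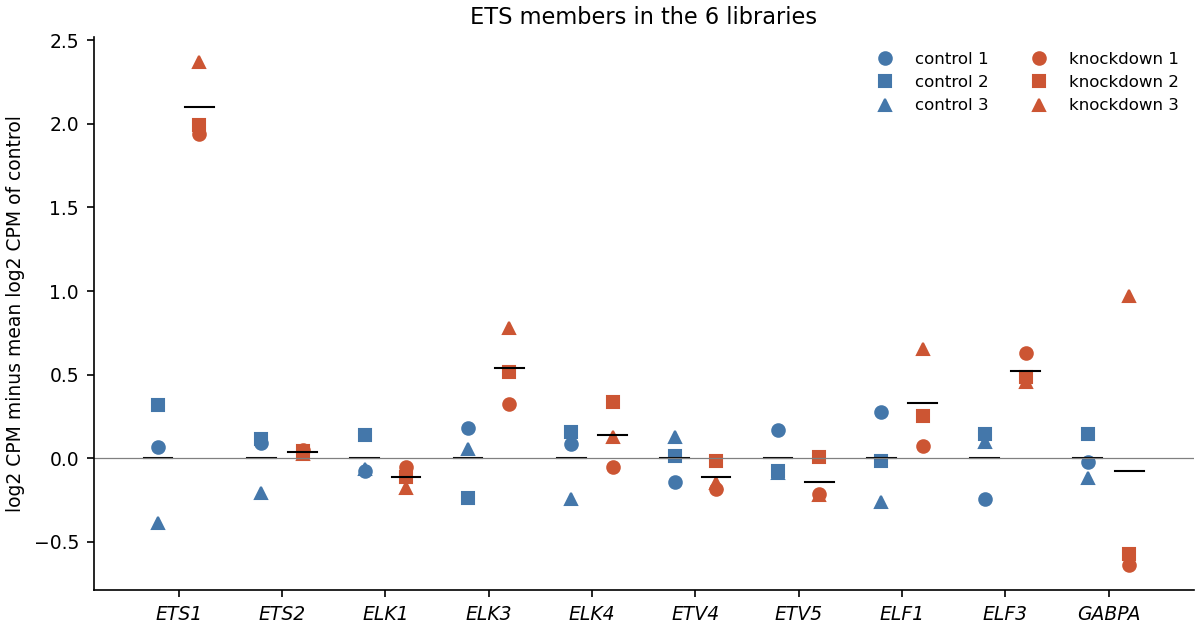
Log2 CPM of each member in each library, minus the mean log2 CPM of the 3 control libraries (blue, control; orange, knockdown; black lines, group means). The groups are apart for ETS1, ELK3 and ELF3, and for GABPA knockdown library 3 lies above and the others below the controls.

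Over all 14197 tested genes, 200 (1.41%) passed the threshold, an adjusted p under 0.05 by edgeR. In knockdown cells 179 of these were higher (1.26%) and 21 lower (0.148%). Of the 10 members, 1, ETS1, was among them, a count that the choice of members precludes reading as a test. Groups did not overlap for 3 of 10 members, ETS1, ELK3 and ELF3, all higher, against 17.1% of tested genes in either direction, 9.83% higher and 7.30% lower. The median log2 fold change of the members was 0.13, beside -0.00 over all tested genes, with 7 of the 10 positive. That median was 0.04 without control library 3, 0.10 without knockdown library 3, 0.20 without control library 2 and 0.31 without knockdown library 1. The members were picked with this comparison in view, so these counts say nothing about the family as such.

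**Figure D4:**
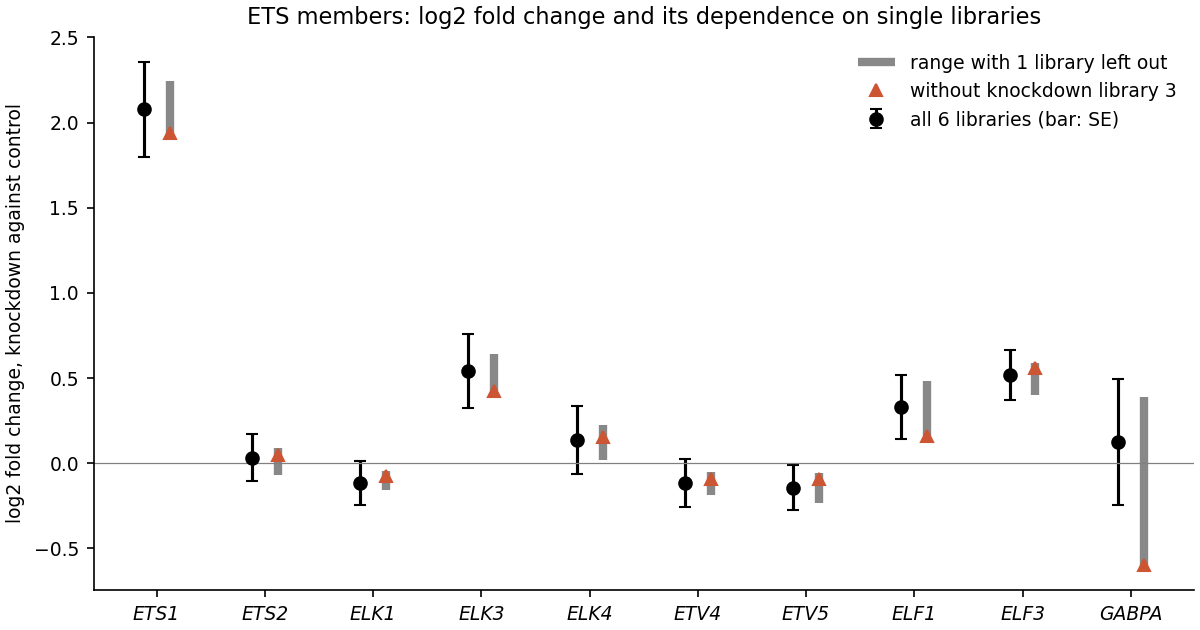
Log2 fold change of knockdown against control for each member with all 6 libraries (black, bar showing the SE), the range over fits with 1 library left out (grey) and the value without knockdown library 3 (triangle). ETS1 stays between 1.91 and 2.24, ELF3 between 0.40 and 0.59, and GABPA ranges from -0.60 to 0.39.

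None of the 6 tested family genes outside the members passed the threshold (edgeR, with 2 at an unadjusted p under 0.05; DESeq2 and limma also gave 0). ERF read 153, 151 and 169 CPM in control and 190, 217 and 206 CPM in knockdown libraries, so its groups did not overlap. The log2 fold change of ERF was 0.37 with an SE of 0.13 (adjusted p = 0.223 by edgeR). ELF4, a relative of ELF1, had a log2 fold change of 0.34 with an SE of 0.15 (adjusted p = 0.409 by edgeR), also without overlap. Groups did not overlap, higher, for these 2 of the 6, against 9.83% of all tested genes. The repressors ETV3 and ETV6 stood at 0.39 and -0.23, ELF2 at -0.09 and ETV2, with 12 to 25 reads per library, at -0.43. The sign of ELF2 turned without knockdown library 2, and ETV3 was 0.17 without knockdown library 3.

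The genes through which ETS factors are regulated were read next. These lists and those that follow were chosen with earlier results of these data known, so their counts are a description. Of 20 genes of the RAS and MAP kinase cascade 0 passed the threshold (edgeR, with 0 at an unadjusted p under 0.05, and 0 by DESeq2 and limma). Their median log2 fold change was 0.07, with 12 of 20 positive. Of 13 tested partners and turnover factors 2 rose and 0 fell, against 1.26% of all tested genes higher, with a median of 0.18. RUNX1, a factor that binds DNA together with ETS1, rose from 8.74 ± 1.09 to 15.6 ± 2.12 CPM (log2 fold change 0.83, adjusted p = 0.0193 by edgeR; SD, n = 3). MRTFA (listed as MKL1), which competes with the ternary complex factors for serum response factor, rose from 26.8 ± 2.92 to 40.5 ± 4.03 CPM (log2 fold change 0.60, adjusted p = 0.0429 by edgeR; SD, n = 3). The calls of RUNX1 and MRTFA were lost when knockdown library 2 or any 1 of the controls was left out (highest adjusted p by edgeR 0.163 and 0.279), and 0 of the 13 passed with the replicate number as a block or by limma on FPKM.

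A part of the genes known as outputs of ERK, several of them bound by ETS factors, passed the threshold, and that part was higher in knockdown cells. Of 14 tested ERK feedback and output genes 4 rose and 0 fell, against 1.26% of all tested genes higher and 0.148% lower. The median log2 fold change of the list was 0.44. FOSL1, an AP-1 subunit, rose from 31.2 ± 3.07 to 74.5 ± 12.6 CPM (log2 fold change 1.25), the receptor tyrosine kinase gene EPHA2 from 108 ± 3.01 to 223 ± 21.6 CPM (1.04), PHLDA1 from 115 ± 15.9 to 188 ± 11.0 CPM (0.71) and DUSP5, a nuclear phosphatase of ERK, from 10.3 ± 2.35 to 18 ± 1.99 CPM (0.81; SD, n = 3 each). Their adjusted p by edgeR was 0.000132, 0.000213, 0.0135 and 0.0329. Of these 4, FOSL1 and EPHA2 passed with any 1 library left out; the calls of PHLDA1 and DUSP5 were lost on leaving out control library 2, control library 3 or knockdown library 2 (highest adjusted p by edgeR 0.149 and 0.191). DUSP6, an ERK phosphatase gene that like ETV4 and ETV5 is a common readout of receptor tyrosine kinase signalling, was named after its values were seen and stood at a log2 fold change of 0.07. Of the 14 genes 12 were positive. The 2 negative ones, also named after their values were seen, were SPRY1 at -0.06 and CCND1 at -0.03.

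Of 10 genes known as targets of ternary complex factors with serum response factor, 5 rose and 0 fell. Over all tested genes 1.26% were higher and 0.148% lower. The median log2 fold change of the list was 0.99, or 0.93 without knockdown library 3. This list was chosen with earlier results of these data known, so its counts and adjusted p are a description and not a test of such targets. FOS rose from 2.26 ± 0.423 to 8.03 ± 0.696 CPM (log2 fold change 1.83), FOSB from 1.91 ± 0.134 to 5.40 ± 0.135 CPM (1.49), EGR1 from 40.0 ± 11.2 to 107 ± 25.2 CPM (1.42) and JUNB from 35.1 ± 3.24 to 75.3 ± 3.80 CPM (1.10; SD, n = 3 each). Their adjusted p by edgeR was 9.9e-05, 0.000691, 0.000673 and 0.000136, and all 4 passed with any 1 library left out. IER2, the fifth gene past the threshold, was named after its values were seen and had a log2 fold change of 0.58 (adjusted p = 0.0266 by edgeR). SRF itself, a member of this list and of the partner list, had a log2 fold change of 0.18 and did not pass.

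Of 10 tested genes known as targets of ETS1 and ETS2, 1 rose and 0 fell. Over all tested genes 1.26% were higher and 0.148% lower. The median log2 fold change of the list was 0.19, with 7 of the 10 positive. Groups did not overlap, higher, for 5 of the 10, against 9.83% of all tested genes, and for 0 of the 10 lower. An unadjusted p under 0.05 by edgeR was reached by 4 of the 10, against 1572 of all 14197 tested genes. PTHLH, the gene of parathyroid hormone-related protein, rose from 0.411 ± 0.181 to 1.49 ± 0.217 CPM (log2 fold change 1.84, adjusted p = 0.0195 by edgeR; SD, n = 3). Its call was lost when knockdown library 2 or any 1 of the controls was left out (highest adjusted p by edgeR 0.134). Of 13 genes of cytochrome oxidase and mitochondrial DNA maintenance known as GABPA targets, 0 passed (edgeR, with 0 at an unadjusted p under 0.05, and 0 by DESeq2 and limma). Their median log2 fold change was -0.13, with 11 of 13 negative, and 0.02 without knockdown library 3, with 8 of 13 positive. COX7A2, with the smallest p of that list, stood at -0.38 and at -0.10 without that library.

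**Figure D5:**
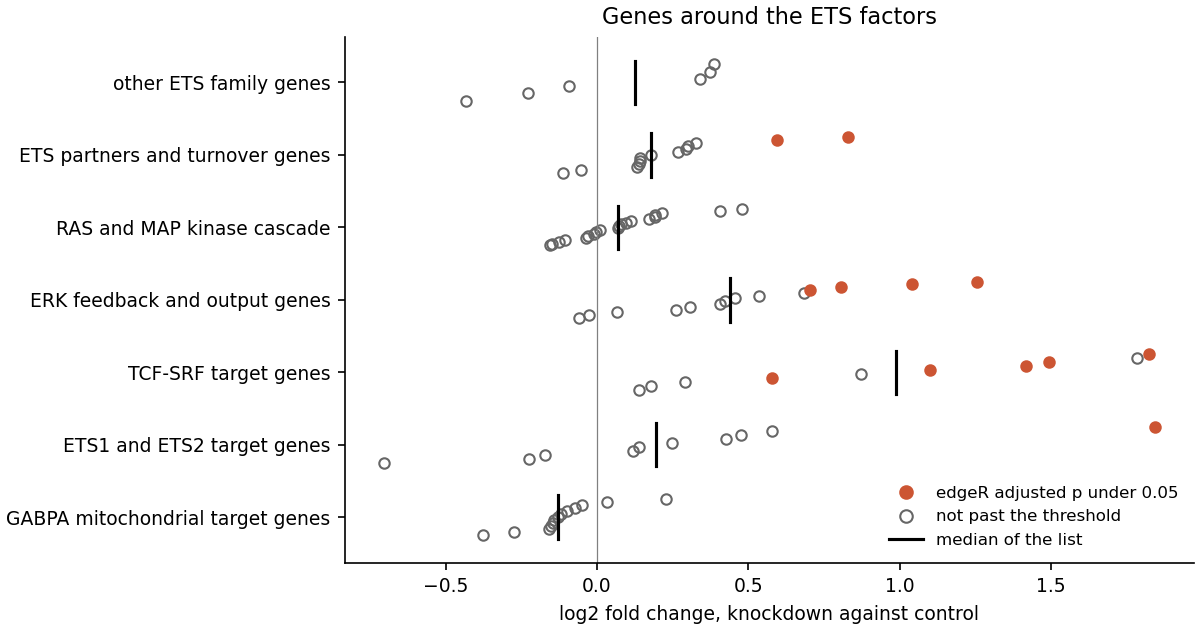
Log2 fold change of knockdown against control for each tested gene of the lists around the ETS factors; filled points passed the edgeR threshold, open points did not, and black lines are list medians. All filled points are to the right of 0, most of them in the lists of ternary complex factor targets (median 0.99) and ERK outputs (median 0.44).

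The genes whose log2 CPM followed a member most closely over the 6 libraries were found by Pearson's r among 12203 genes with a mean of at least 1 CPM. For ETS1 they were PNN (0.996), ACIN1 (0.995) and ANKLE2 (0.994), and 370 genes exceeded 0.9. For ELF3 they were CSNK1D (0.995), FAM53C (0.992) and CLK3 (0.992), and for ETS2, which did not separate by group, KIAA0020 (0.973), PIM1 (0.972) and FXYD5 (0.970), with 257 and 24 genes above 0.9. Among the members themselves ETS1 followed ELF3 (r = 0.850) and ELK3 (r = 0.838) most closely. These values rest on 6 libraries that share depth and group, and are given as a description.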

How the data were processed

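Libraries were poly(A)-selected and directional per the labels' protocols. The authors deposited whole-number counts and, in a second table, FPKM. Both came from GRCh38, and the submitters' processing notes name bcl2fastq, TopHat2 and edgeR as tools without versions. For the read counter, the annotation and the strand setting, the answer is not given in the sources used here. Counts were tested here with edgeR 4.0.16 (R 4.3.3) by the quasi-likelihood test with filterByExpr, TMM and robust dispersion, group as the only term, and Benjamini-Hochberg adjustment over all 14197 tested genes. Standard errors came from the estimate and the F statistic. The procedure was checked on simulated data. Coordinates came from GENCODE 29, matched for 25870 of 26389 identifiers, with the version ignored. Within each group no pair of libraries was a duplicate: chi-square divided by its degrees of freedom was 14.9 to 93.5. Pairs of a control and a knockdown library were not compared in this way.

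The members and lists were chosen with earlier results of these data known. Named genes were the members, TPT1, each tested family gene, up to 4 genes past the threshold per list or the 1 with the smallest p, and 3 nearest genes for ETS1, ETS2 and ELF3. One gene that this rule names is not reported here. Alternatives were RLE and upper quartile scaling, no filter or 1 CPM in 3 libraries, a replicate block, DESeq2 1.42.0, limma 3.58.1 on log2 FPKM with pseudocounts of 1 and 0.1, and each library left out.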

Additional observations from a re-analysis of the deposited data

How the results depend on the processing

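The count of genes past the threshold (200) was 317 with no filter on low counts, 314 with DESeq2, 130 with the replicate number as a block, and 79 to 343 with 1 library left out, the lowest without control library 2 and the highest without knockdown library 3. Members past the threshold numbered 1 to 2 with 1 library left out (2 without knockdown library 3), a description only, and 1 in every other setting. Partners and turnover genes past it were 0 with the replicate block and 0 by limma with either pseudocount, and 0 to 2 with 1 library left out; ERK output genes were then 2 to 6, ETS1 and ETS2 targets 0 to 1, and the lists of other family genes, kinases and GABPA targets had 0 in every setting. ELF2 turned to 0.0036 by limma on log2(FPKM + 1) and ranged from -0.26 to 0.10 with 1 library left out, the highest without knockdown library 2. GABPA was -0.04 with the replicate block. Of 140 alternative values of member log2 fold changes 134 moved by less than the spread between replicates. ETS1 was 0.49 and 1.59 on the log2(FPKM + 1) and log2(FPKM + 0.1) scales, where the added constant exceeds or nearly equals its level. Same-numbered libraries did not deviate together (r = -0.30, -0.01 and -0.28), and 0 of 6 libraries correlated best with their own number, so the numbers were not treated as pairs. Low members are limited by depth: ETS1 and GABPA rest on 16 to 115 reads per library.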
